A study of Mus musculus with 10 samples.

Results

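The potassium channel genes of skeletal muscle were taken as every row of the deposited expression table whose symbol starts with Kcn, which gave 31 of 13492 genes. Of these, 14 encode pore-forming subunits of voltage-gated channels, 5 inward rectifiers (Kcnj), 5 calcium-activated channels or their subunits (Kcnm, Kcnn), 3 tandem-pore channels (Kcnk) and 3 accessory subunits (Kcnab, Kcne). The remaining row, Kcnq1ot1, is an antisense RNA of the Kcnq1 locus and was kept apart from the channels. RNA came from the tibialis anterior, a mostly fast muscle at the front of the shin. The mice were C57BL/6, 6 months old, and had been without food for 3 h. The libraries were 5 labelled Lrtm1 KO and 5 labelled Lrtm1 WT, the series' text calling the second group flox control. Litter 108 gave 2 KO and 1 WT libraries, litter 110 gave 1 and 2, and litter 112 gave 2 and 2. The labels name no Cre driver and no deleted exon, and the series' text states 4 per group where the labels give 5. No label ties each library to an animal of its own. The p-values therefore reflect the spread among these samples, which may be technical.

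Potassium channels let potassium ions leave or re-enter the fibre. Voltage-gated channels repolarise the membrane after each action potential, inward rectifiers and tandem-pore channels hold the resting potential, and calcium-activated channels link the potassium current to intracellular calcium. In muscle, potassium that leaves during activity gathers in the transverse tubules, and inward rectifiers take part in its return. The ATP-sensitive channel of the fibre is built from the inward rectifier subunit of Kcnj11 and a sulphonylurea receptor, and it couples conductance to the energy state of the cell.

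A pore subunit carries a short selectivity signature through which potassium ions pass. The coding bases of this signature were searched in the longest complete coding sequence of each gene (GENCODE M21, GRCm38), in frame and on the coding strand, with the motif ACNNTNGGNTNNGGN, in which N is any base. The motif was found in 22 of 30 coding members, against 104 of 12310 coding genes of the table (0.845%). It was present in 13 of 14 voltage-gated genes, in all 5 inward rectifier genes, in Kcnma1 and in all 3 tandem-pore genes, and in none of the 3 accessory genes. Kcnh2, Kcnmb1, Kcnn1, Kcnn2 and Kcnn3 held no match to these letters. The motif misses any signature whose first codon is not ACN, so the lack of a match does not show that a pore gene lacks a signature. The sequences below show the signature, in capitals, of abundant pore genes and of those described for their differences. The last codon but one of the capitals was TAT or TAC in every voltage-gated match and in Kcnma1. It was TTC in Kcnj11 and TTT in Kcnj8, the pore subunits of the ATP-sensitive channels, and TAT or TAC in the other 3 inward rectifiers. Among the tandem-pore matches this codon began with TA in 2 and with TT in 3, the latter in Kcnk2 and Kcnk5. A codon beginning with TT was therefore not limited to the ATP-sensitive channels.
Kcnc1: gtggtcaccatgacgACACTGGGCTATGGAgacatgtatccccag
Kcnc4: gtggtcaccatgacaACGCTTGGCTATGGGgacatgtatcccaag
Kcna7: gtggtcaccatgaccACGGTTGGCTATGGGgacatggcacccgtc
Kcng4: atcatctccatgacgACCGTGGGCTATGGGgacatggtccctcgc
Kcnf1: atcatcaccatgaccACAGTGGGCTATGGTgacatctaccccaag
Kcnj11: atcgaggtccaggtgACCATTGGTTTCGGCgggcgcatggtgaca
Kcnj8: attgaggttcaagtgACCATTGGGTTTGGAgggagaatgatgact
Kcnj2: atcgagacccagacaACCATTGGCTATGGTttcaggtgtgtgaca
Kcnj15: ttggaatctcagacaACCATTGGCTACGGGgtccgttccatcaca
Kcnma1: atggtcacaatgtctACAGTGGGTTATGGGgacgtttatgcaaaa
Kcnk6: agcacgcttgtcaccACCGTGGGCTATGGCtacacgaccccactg

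Values are log2 CPM (counts scaled to a common library size) as the authors adjusted and deposited them. Litter and further terms had already been removed, and read depth is not known. The libraries had medians between 3.35 and 3.36 log2 CPM. The targeted gene Lrtm1, on chr14:29018208-29033645 (GENCODE M21, GRCm38), had 6.20, 6.12, 6.10, 5.97 and 6.21 log2 CPM in the libraries labelled KO and 5.61, 5.66, 5.73, 5.65 and 5.78 in those labelled WT. It was higher, not lower, in the libraries labelled KO (log2 difference 0.44, SE 0.07, limma adjusted p = 0.0344), so its level goes against the label. The adjusted p was 0.0789 without KO replicate 3, 0.143 without WT replicate 1, 0.0788 without WT replicate 5 and 0.0529 without WT replicate 6, so each of these libraries decides whether Lrtm1 passes. Where reads from outside the deleted exons are counted, a gene-level value is no check of the deletion. Every direction given here is between libraries as labelled. Myofibre markers were abundant. Myh4, a fast myosin gene, averaged 15.07 log2 CPM in libraries labelled KO and 14.94 in libraries labelled WT.

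Between genes, levels were compared per kilobase of the longest annotated transcript. The 6 leading genes together held 81.0% of the summed CPM per kilobase of the 30 channel and accessory genes. Kcnj11, the pore of the ATP-sensitive channel, ranked first at 47.8 ± 1.15 CPM per kilobase in libraries labelled KO and 48.2 ± 2.17 in libraries labelled WT (SD, n = 5 each). Kcnc4, which encodes a fast-activating voltage-gated subunit, followed at 44.7 ± 2.35 CPM per kilobase in libraries labelled KO and 43.3 ± 3.15 in libraries labelled WT. Kcna7, a voltage-gated subunit known for its expression in skeletal muscle and heart, stood at 42.7 ± 2.47 CPM per kilobase in libraries labelled KO and 40.0 ± 1.34 in libraries labelled WT. Kcnc1, a close relative of Kcnc4, stood at 26.7 ± 1.76 in libraries labelled KO and 25.9 ± 1.20 in libraries labelled WT. Kcng4, whose product does not form channels alone but joins other voltage-gated subunits, stood at 22.3 ± 1.38 in libraries labelled KO and 23.7 ± 2.09 in libraries labelled WT. Kcnj12, a strong inward rectifier of the resting membrane, stood at 19.0 ± 0.18 in libraries labelled KO and 18.7 ± 0.67 in libraries labelled WT.

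Below Kcnj12 came genes of lower level, among them Kcnj2, another strong inward rectifier, at 6.60 CPM per kilobase over all 10 libraries, and the ranges of Kcnj12 and Kcnj2 did not overlap. Neighbours in this order often did not differ beyond their spread. Kcnc4 lay below Kcnj11 in all 10 libraries although their ranges overlapped, Kcna7 lay below Kcnc4 in 8 of 10, and the range of Kcnc1 did not reach that of Kcna7. Kcna5 (5.06) and Kcnn1 (4.96) had overlapping ranges. Kcnj8 (4.04), Kcnq5 (2.84), Kcnma1 (1.81) and Kcnn2 (1.49 CPM per kilobase) lay lower. A further 14 genes lay below 1 CPM per kilobase, from 0.953 for Kcnf1 to 0.0993 for Kcnj15.

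**Figure D1:**
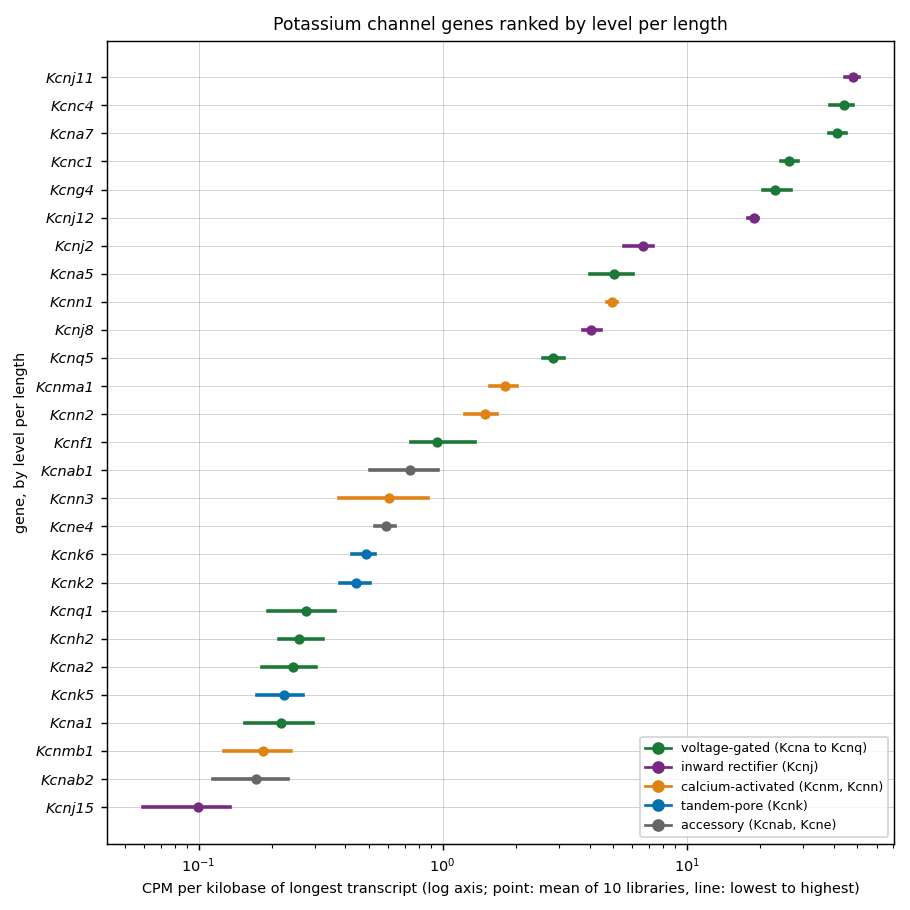
Level per length of channel and accessory genes. The horizontal log axis gives CPM per kilobase of the longest transcript, points are means of 10 libraries and lines run from the lowest to the highest library, coloured by group. Kcnj11, Kcnc4, Kcna7, Kcnc1, Kcng4 and Kcnj12 stand apart at 18.8 to 48.0 CPM per kilobase, and Kcnj15 is lowest at 0.0993.

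The order depended on the length chosen. With the median annotated transcript length in place of the longest, Kcnc1 was second, Kcnc4 came after it and Kcna7 next, with Kcnj11 still first. The median for Kcnj11 is 494 bases, too short to hold its coding sequence of 390 codons, so its level per length is then too high. By CPM without division by length, Kcnc1 was first, ahead of Kcnc4 and then Kcnj11. Libraries labelled KO alone and libraries labelled WT alone gave the same order of the 6 leading genes.

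By group, voltage-gated genes held 64.4% ± 0.93 of the summed CPM per kilobase of channel and accessory genes in libraries labelled KO and 63.8% ± 0.87 in libraries labelled WT (SD, n = 5 each). Inward rectifiers held 30.9% ± 0.87 in libraries labelled KO and 31.5% ± 0.76 in libraries labelled WT, and calcium-activated genes 3.60% ± 0.09 in libraries labelled KO and 3.68% ± 0.14 in libraries labelled WT. Tandem-pore genes held 0.444% ± 0.03 in libraries labelled KO and 0.482% ± 0.03 in libraries labelled WT, and accessory genes 0.646% ± 0.04 in libraries labelled KO and 0.559% ± 0.04 in libraries labelled WT. The order of these groups also depended on the length chosen. With the median transcript length, which raised Kcnj11 to 305 CPM per kilobase over all libraries, inward rectifiers held 55.6% ± 0.87 in libraries labelled KO and 56.4% ± 0.75 in libraries labelled WT. Voltage-gated genes then held 40.1% ± 0.90 in libraries labelled KO and 39.4% ± 0.78 in libraries labelled WT. This lead of the inward rectifiers rests on the Kcnj11 median of 494 bases, which is too short to hold the Kcnj11 coding sequence. With either length, voltage-gated and inward rectifier genes together made up most of the channel transcripts in both groups of libraries.

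**Figure D2:**
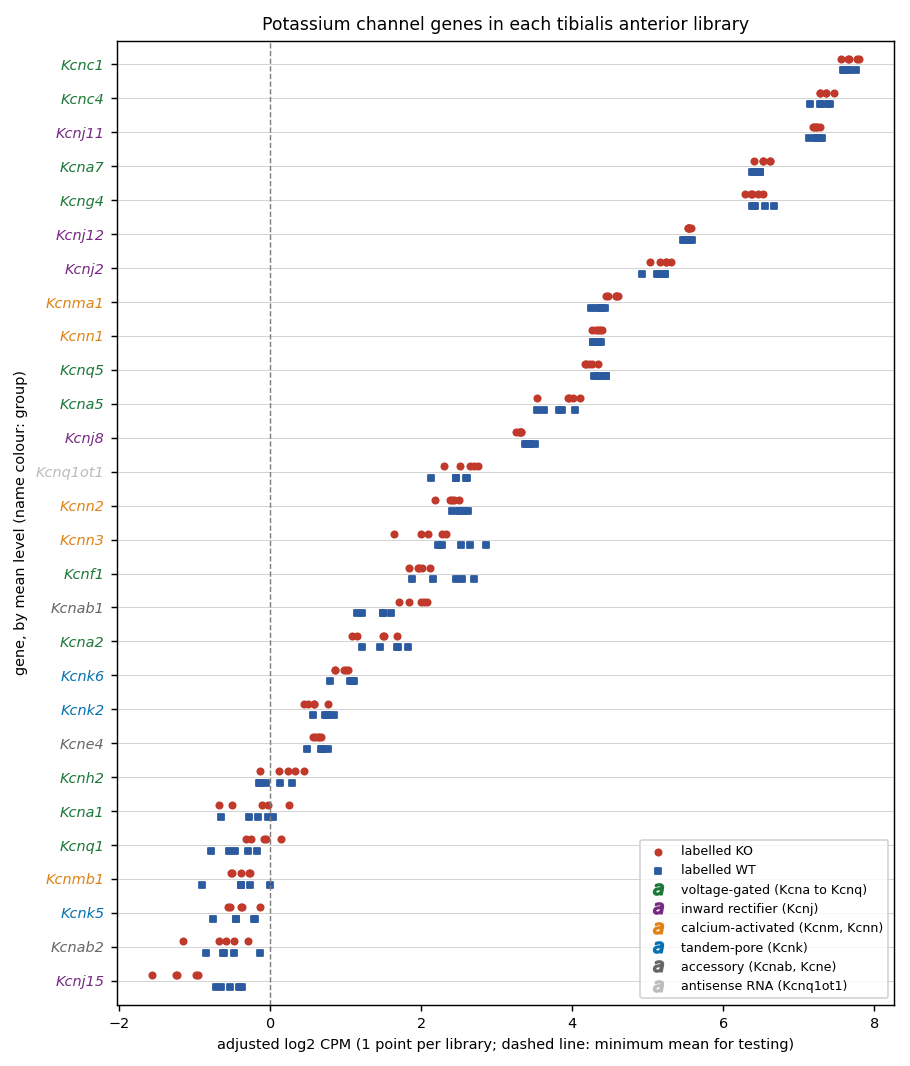
Adjusted log2 CPM of the genes in each library, ordered by mean. Red circles are the 5 libraries labelled KO and blue squares the 5 labelled WT, gene names are coloured by group, and the dashed line marks the minimum mean of 0 for testing. The points of the groups are apart in Kcnma1, Kcnj8, Kcnab1 and Kcnj15 and overlap in the other genes shown.

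The comparison asked whether the libraries labelled KO and WT differed in any of these genes. The mean passed the minimum for testing in 25 of the 31, and Kcna1, Kcnq1, Kcnmb1, Kcnk5, Kcnab2 and Kcnj15 lay below it. None of the 25 passed the threshold (limma, adjusted p from 0.268 upward), where 0.335% of all genes tested did, 41 of 12223 (0.27% higher and 0.0655% lower in libraries labelled KO). At an unadjusted p under 0.05 there were 3, Kcnab1, Kcnma1 and Kcnn3, where 10.1% of all genes tested reached that level. In the fit with litter and genotype only, which counts degrees of freedom that the adjustment had used up, 1 passed, Kcnab1, where 8.62% of all genes did (5.15% higher and 3.48% lower in libraries labelled KO). Of the 25, 14 had a difference above 0, with a median log2 difference of 0.02, against 48.6% and -0.00 over all genes tested. The groups of libraries did not overlap in 3 of the 25, where this held for 16.2% of all genes tested.

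Levels were also summed over each group in every library. The 14 voltage-gated genes summed to 701 ± 36.0 CPM in libraries labelled KO and 685 ± 29.9 in libraries labelled WT (SD, n = 5 each). Inward rectifiers summed to 244 ± 2.34 CPM in libraries labelled KO and 244 ± 8.28 in libraries labelled WT, calcium-activated genes to 53.7 ± 1.13 in libraries labelled KO and 52.7 ± 2.01 in libraries labelled WT, and tandem-pore genes to 4.18 ± 0.25 in libraries labelled KO and 4.47 ± 0.38 in libraries labelled WT. For these 4 groups the difference in means was smaller than the larger SD. Accessory genes summed to 6.02 ± 0.48 CPM in libraries labelled KO and 4.92 ± 0.43 in libraries labelled WT, a ratio of 1.22, which was carried by Kcnab1. Without Kcnab1 the log2 ratio was -0.05 in place of 0.29. The ranges overlapped between the groups of libraries for all 5 sums, which were described and not tested.

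**Figure D3:**
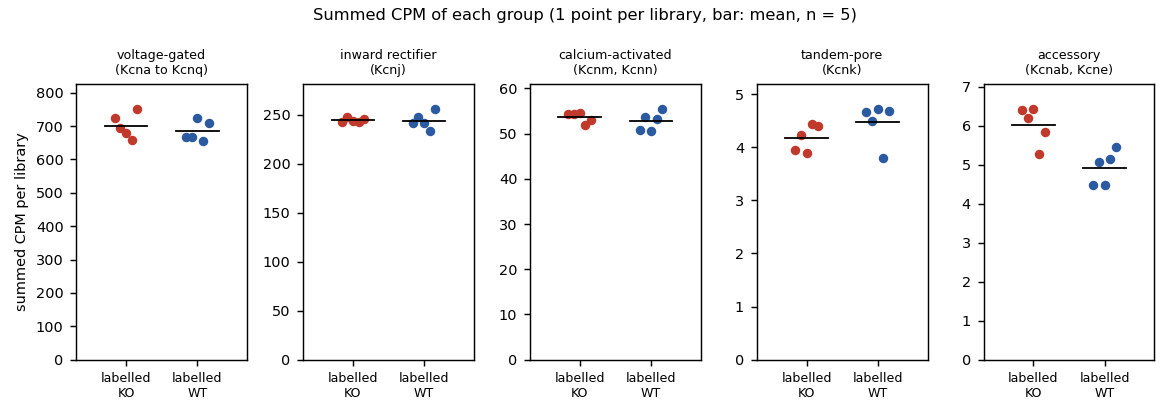
Summed CPM of the 5 groups of genes in each library. Points are libraries, labelled KO left and labelled WT right, bars are means of 5, and each vertical axis starts at 0. The means differ by less than the larger SD except for the accessory genes, at 6.02 CPM in libraries labelled KO and 4.92 in libraries labelled WT.

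Among voltage-gated genes, 12 of 14 were tested, 8 with a difference above 0 and 4 below, with a median log2 difference of 0.04. The most abundant by CPM, Kcnc1, had 7.77, 7.66, 7.66, 7.57 and 7.80 log2 CPM in libraries labelled KO and 7.60, 7.59, 7.75, 7.66 and 7.66 in those labelled WT. The groups overlapped, and the log2 difference of 0.04 had a 95% interval from -0.11 to 0.19 (adjusted p = 0.895). Kcnc4 had 7.37, 7.36, 7.28, 7.29 and 7.47 log2 CPM in libraries labelled KO and 7.28, 7.30, 7.39, 7.15 and 7.42 in those labelled WT, again overlapping, with a log2 difference of 0.05 (interval -0.11 to 0.21). Both intervals span 0, and the spread that the adjustment removed is not in them.

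Kcna7 had 6.62, 6.53, 6.53, 6.41 and 6.61 log2 CPM in libraries labelled KO and 6.38, 6.41, 6.49, 6.46 and 6.49 in libraries labelled WT. Its 4 highest values were all from libraries labelled KO, but KO replicate 4 lay among the WT values, and the log2 difference was 0.10 (SE 0.06, adjusted p = 0.674). Kcng4 and Kcnf1 encode silent subunits that join other voltage-gated ones. Kcng4 differed by -0.09 (SE 0.08), with overlapping groups. Kcnf1 had 2.005, 1.83, 1.97, 2.11 and 1.95 log2 CPM in libraries labelled KO, against 2.46, 2.15, 2.54, 2.70 and 1.87 in libraries labelled WT. Every WT value except that of replicate 6 lay above every KO value. The log2 difference was -0.37 (SE 0.17, adjusted p = 0.518).

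The slowly activating subunit gene Kcnq5 differed by -0.14 (SE 0.08, adjusted p = 0.572). Kcnq5 ranged from 4.17 to 4.34 log2 CPM in libraries labelled KO and from 4.29 to 4.45 in those labelled WT. The ranges overlapped. Kcna5, a delayed rectifier also known from heart and vessels, had 4.10, 3.95, 4.01, 3.53 and 3.94 log2 CPM in libraries labelled KO and 3.54, 3.82, 3.63, 3.87 and 4.03 in those labelled WT. Its difference of 0.13 (SE 0.14) was 0.49 within litter 108, 0.28 within litter 110 and -0.22 within litter 112.

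Kcna2 and Kcna1 encode channels best known from myelinated axons. Kcna2 ranged from 1.08 to 1.68 log2 CPM in libraries labelled KO and from 1.22 to 1.82 in those labelled WT (log2 difference -0.19, SE 0.19). Kcna1, below the minimum for testing, averaged -0.22 in both groups. Of 8 listed Schwann cell and nerve markers 7 were in the table, with a summed level from 57.3 to 115 CPM in libraries labelled KO and from 72.4 to 104 in libraries labelled WT. Their part in the spread of these genes was not tested. In a whole muscle, fewer cells of a type and less RNA per cell cannot be told apart. Kcnh2, the rapid delayed rectifier of heart, was near the minimum and differed by 0.18 (SE 0.23), and Kcnq1 averaged -0.11 ± 0.18 log2 CPM in libraries labelled KO and -0.46 ± 0.23 in libraries labelled WT (SD, n = 5 each). Exons of Kcnq1 overlap those of Kcnq1ot1 on the other strand, and no source used here says whether counting used strand, so both values are uncertain. Kcnq1ot1 averaged 2.58 ± 0.18 log2 CPM in libraries labelled KO and 2.45 ± 0.19 in libraries labelled WT.

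Of 4 inward rectifiers tested, 2 had a difference above 0 and 2 below, with a median log2 difference of 0.01. Kcnj11 had 7.23, 7.24, 7.19, 7.21 and 7.28 log2 CPM in libraries labelled KO and 7.23, 7.25, 7.27, 7.14 and 7.32 in those labelled WT. The groups lay on top of each other, with a log2 difference of -0.01 and a 95% interval from -0.14 to 0.12 (adjusted p = 0.973). Its receptor partner in muscle, Abcc9, had 8.47, 8.49, 8.46, 8.43 and 8.48 log2 CPM in libraries labelled KO and 8.32, 8.38, 8.32, 8.28 and 8.44 in those labelled WT. Its difference was 0.12 (SE 0.06, adjusted p = 0.524), with WT replicate 6 alone reaching into the KO range. The other receptor, Abcc8, was low, at 0.49 ± 0.17 log2 CPM in libraries labelled KO and 0.81 ± 0.21 in libraries labelled WT (SD, n = 5 each), and differed by -0.32 (SE 0.20, adjusted p = 0.647).

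Kcnj12 and Kcnj2 carry the strong inward rectifier current. Kcnj12 had 5.54, 5.57, 5.54, 5.53 and 5.55 log2 CPM in libraries labelled KO and 5.51, 5.55, 5.49, 5.46 and 5.59 in those labelled WT, with a difference of 0.03 (interval -0.10 to 0.15). Kcnj2 had 5.16, 5.24, 5.31, 5.25 and 5.03 log2 CPM in libraries labelled KO and 5.12, 5.23, 4.92, 5.22 and 5.16 in those labelled WT, with a difference of 0.07 (interval -0.12 to 0.26). Both overlapped between the groups. Kcnj8, the ATP-sensitive pore subunit known from vascular smooth muscle and pericytes, had 3.31, 3.32, 3.30, 3.26 and 3.32 log2 CPM in libraries labelled KO and 3.40, 3.44, 3.41, 3.37 and 3.50 in those labelled WT. All KO values lay below all WT values, within each litter by -0.08, -0.13 and -0.14, but the difference of -0.12 (SE 0.08) did not pass the threshold (adjusted p = 0.671). Smooth muscle and pericyte markers, 9 of 9 in the table, summed to between 487 and 514 CPM in libraries labelled KO and between 493 and 522 in libraries labelled WT. Of the 8 markers tested 4 differed above 0 and 4 below (median log2 difference 0.02). The lowest marker, Cnn1, averaged -0.95 log2 CPM in libraries labelled KO and -0.51 in libraries labelled WT and was not tested. Their part in the level of Kcnj8 was not tested.

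Kcnj15, on chr16:95257558-95300260, was the lowest member. It had -0.98, -1.24, -1.25, -1.56 and -0.96 log2 CPM in libraries labelled KO and -0.72, -0.65, -0.38, -0.53 and -0.42 in those labelled WT. The groups did not overlap, as in 4 of the 31 members and in 16% of all rows of the table. The log2 difference of -0.66 did not pass in the fit without a minimum (SE 0.30, adjusted p = 0.520). The depth at such a level is unknown.

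Of the calcium-activated genes, 2 of 4 tested differed above 0 and 2 below, with a median of -0.06. Kcnma1, the pore of the large-conductance channel, had 4.48, 4.58, 4.58, 4.61 and 4.45 log2 CPM in libraries labelled KO and 4.38, 4.43, 4.24, 4.33 and 4.40 in those labelled WT. The groups did not overlap, and the KO libraries were higher by 0.15, 0.24 and 0.16 within litters 108, 110 and 112. The log2 difference of 0.18 (SE 0.07, a ratio of 1.13) missed the threshold (adjusted p = 0.443). Kcnma1 lies on chr14:23289431-24014491, 5.0 Mb from Lrtm1 on the same chromosome. Kcnk5, at chr14:20140057-20181809 and below the minimum for testing, averaged -0.40 log2 CPM in libraries labelled KO and -0.42 in libraries labelled WT. The part of position in these levels was not tested. Kcnmb1, its smooth muscle subunit, was below the minimum at -0.39 ± 0.12 log2 CPM in libraries labelled KO and -0.39 ± 0.33 in libraries labelled WT (SD, n = 5 each).

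None of the 3 small-conductance channel genes passed the threshold. Kcnn1 was the most abundant of them and had 4.37, 4.34, 4.32, 4.26 and 4.39 log2 CPM in libraries labelled KO and 4.28, 4.31, 4.35, 4.27 and 4.38 in those labelled WT, with a difference of 0.02 (interval -0.14 to 0.17). Kcnn2 differed by -0.14 (SE 0.11). Kcnn3, a subunit known to be raised in denervated muscle, had 2.33, 2.09, 2.28, 1.64 and 1.999 log2 CPM in libraries labelled KO and 2.22, 2.53, 2.27, 2.86 and 2.64 in those labelled WT. Its difference of -0.44 (SE 0.18, adjusted p = 0.451) was -0.93 within litter 112, and -0.01 and -0.12 within litters 108 and 110. The 2 lowest KO values and the 2 highest WT values all came from litter 112. With litter removed and genotype kept, deviations from the group means cancel within a litter. The low KO and high WT values are therefore not separate observations.

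**Figure D4:**
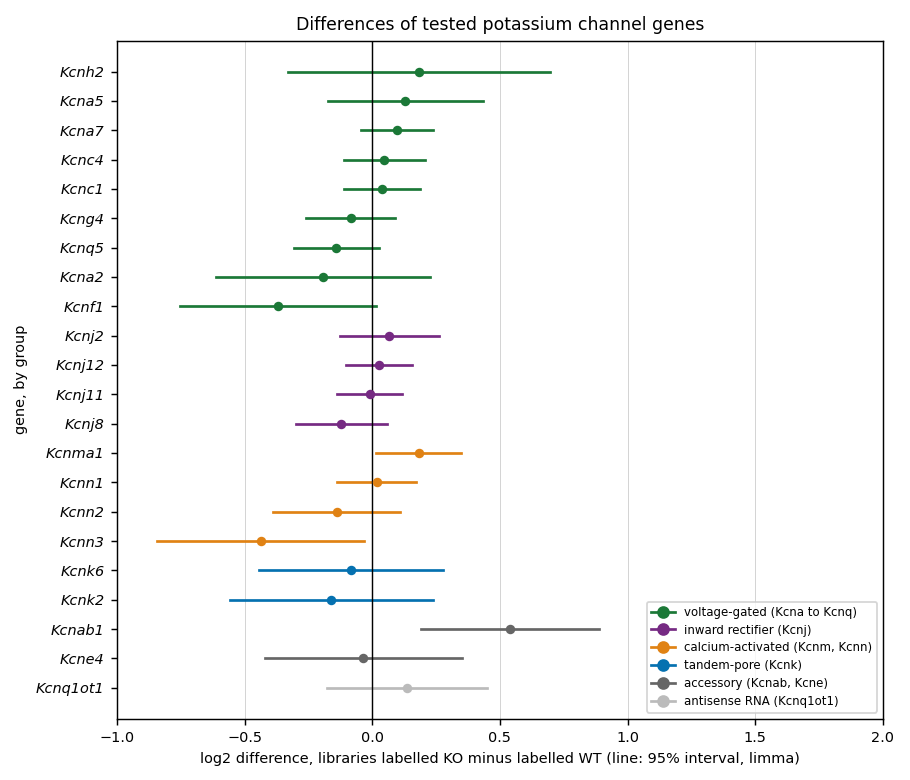
Log2 differences of tested genes, libraries labelled KO minus libraries labelled WT. Points are differences and lines their 95% intervals from limma, grouped and coloured by class of gene. The unadjusted intervals of Kcnab1, Kcnma1 and Kcnn3 leave out 0, and none of the genes shown passed after adjustment.

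Tandem-pore channels give a background potassium current. Kcnk6 ranged from 0.86 to 1.03 log2 CPM in libraries labelled KO and from 0.79 to 1.11 in those labelled WT, with a difference of -0.08 (SE 0.16). Kcnk2, a channel opened by stretch and fatty acids, ranged from 0.44 to 0.76 in libraries labelled KO and from 0.56 to 0.85 in those labelled WT, with a difference of -0.16 (SE 0.18). Kcnk5 averaged -0.40 ± 0.17 log2 CPM in libraries labelled KO and -0.42 ± 0.23 in libraries labelled WT (SD, n = 5 each) and was not tested. None of the 3 separated the groups.

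Among accessory genes, Kcnab1 had the largest positive difference of all members tested. It encodes a cytosolic beta subunit that binds voltage-gated channels of the Kcna family and lies on chr3:65109384-65378223. It had 2.03, 1.997, 2.07, 1.71 and 1.84 log2 CPM in libraries labelled KO and 1.22, 1.49, 1.14, 1.497 and 1.60 in those labelled WT. All KO values lay above all WT values. The log2 difference was 0.54 (SE 0.16, interval 0.19 to 0.89, a ratio of 1.45), with an unadjusted p of 0.00587 that did not pass after adjustment (adjusted p = 0.268). With litter and genotype only, the adjusted p was 0.0264. KO libraries exceeded WT libraries by 0.79, 0.76 and 0.23 within litters 108, 110 and 112. Kcnab2, a second beta subunit, averaged -0.64 ± 0.32 log2 CPM in libraries labelled KO and -0.54 ± 0.26 in libraries labelled WT (SD, n = 5 each). Kcne4, a single-span subunit that modulates voltage-gated channels, differed by -0.04 (SE 0.17).

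**Figure D5:**
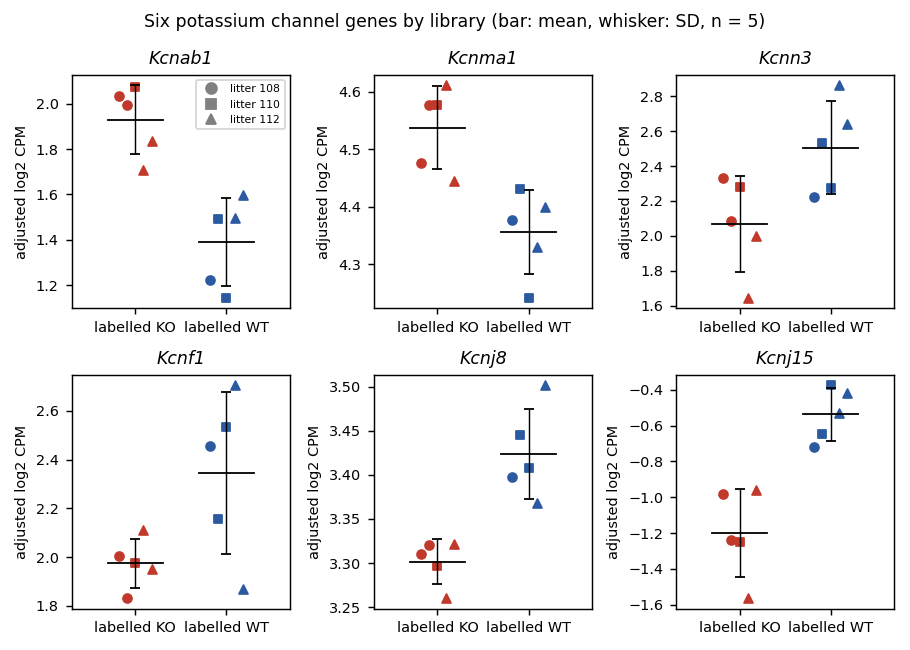
Adjusted log2 CPM of 6 genes, chosen after their values were seen for their large or non-overlapping differences. Points are libraries, shaped by litter, labelled KO left and labelled WT right, with the mean and SD of 5. All KO points lie above the WT points for Kcnab1 and Kcnma1 and below them for Kcnj8 and Kcnj15, while Kcnn3 and Kcnf1 overlap.

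The genes that work with potassium channels were read from 4 further lists, and none of their members passed the threshold. Of 18 tested partners and scaffolds outside the Kcn symbols, 10 differed above 0 with a median log2 difference of 0.01. The 2 with the smallest p were Abcc9, given above, and the ubiquitin ligase gene Nedd4l, which averaged 5.28 ± 0.05 log2 CPM in libraries labelled KO and 5.03 ± 0.05 in libraries labelled WT (SD, n = 5 each). The Nedd4l groups did not overlap, and its difference of 0.25 (SE 0.06) had an adjusted p of 0.180, and 0.00615 with litter and genotype only. Of 10 tested other potassium-permeable channels, 6 differed above 0 with a median of 0.05. Among them the volume-regulated channel genes Lrrc8c (0.22, SE 0.09) and Lrrc8a (0.23, SE 0.10) came closest, at an adjusted p of 0.440 and 0.477.

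Of 26 tested genes for sodium, chloride and calcium conductances and potassium transport, 14 differed above 0, with a median of 0.02. All 10 tested genes of the activity and denervation list differed above 0, with a median of 0.14, where 48.6% of all genes tested did. The acetylcholine receptor subunit gene Chrnd averaged 2.02 ± 0.08 log2 CPM in libraries labelled KO and 1.57 ± 0.26 in libraries labelled WT, with a difference of 0.45 (SE 0.16, adjusted p = 0.356). The transcription factor gene Runx1 averaged 1.42 ± 0.15 in libraries labelled KO and 0.96 ± 0.19 in libraries labelled WT, with a difference of 0.46 (SE 0.17, adjusted p = 0.392).

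Of the marker lists of other cell types, the adipocyte list was the one whose summed level did not overlap between the groups of libraries, at 68.3 to 78.5 CPM in libraries labelled KO and 79.3 to 95.6 in libraries labelled WT. All 6 of its markers differed below 0 (median log2 difference -0.94), as did 6287 of all 12223 genes tested. Of the 6 markers, 5 had an unadjusted p under 0.05 (limma), where 10.1% of all genes tested did. None passed the threshold, and 4 passed it with litter and genotype only, where 8.62% of all genes did. Lep, the leptin gene, averaged -0.60 log2 CPM in libraries labelled KO and 1.61 in libraries labelled WT (log2 difference -2.21, SE 0.41, adjusted p = 0.0642). Fabp4, which endothelial cells also express and which has most of the summed level, differed by -0.05 (SE 0.06). Slow fibre markers, 6 of 6 in the table, summed to between 47.8 and 64.1 CPM in libraries labelled KO and between 43.3 and 49.6 in libraries labelled WT. Atp2a2 has most of this sum, at a mean of 41.3 CPM in libraries labelled KO and 35.7 in libraries labelled WT. Of the 6 markers 4 differed above 0 and 2 below, Tnnt1 (-0.19) and Tnni1 (-0.26), and none passed the threshold. Atp2a2 differed by 0.21 (SE 0.07, limma adjusted p = 0.332). It was the 1 slow fibre marker that passed with litter and genotype only (adjusted p = 0.0365), where 8.62% of all genes did. Endothelial, fibroblast, macrophage and satellite cell sums overlapped between the groups of libraries, and none of their markers passed. All 6 macrophage and all 3 tested satellite cell markers also differed below 0 (median log2 difference -0.10 and -0.14). So did 5 of 6 fibroblast markers (median -0.10), while 3 endothelial markers differed above 0 and 3 below. Over all genes tested, 48.6% differed above 0. The part of these cells in the channel genes was not tested.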

How the data were processed

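Tibialis anterior RNA was sequenced as 10 stranded oligo-dT libraries, per the labels' protocols. A single deposited table, made by the authors, holds adjusted log2 CPM. fastp, kallisto and limma are named, without versions, in the submitters' processing notes. No source used here gives the genome build, the annotation or the adjusted terms. Read totals were not used, so depth is unknown and there are no counting intervals. With genotype in the fit, litter differences were below 1e-08 in every gene. The residuals spanned 3 dimensions where litter and genotype leave 6 degrees of freedom, so 3 further terms had also been removed. SDs and SEs leave out that variation and are lower bounds.

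Genes averaging 0 log2 CPM or more, 12223 in all, entered limma 3.58.1 in R 4.3.3 (lmFit, eBayes with a trend, two-sided), with litter, genotype and the 3 removed terms. Calls were made at 0.05 after Benjamini-Hochberg adjustment. A fit with litter and genotype only, which counts all 6 degrees of freedom, was an alternative. Members, lists and the choice of fit were made with earlier results of these data known. Named genes were Lrtm1, members averaging at least 3 log2 CPM, members past the threshold in either fit, the 3 tested members with the largest differences and the most abundant member per length in each group, and the lowest member. Other lists gave up to 4 members past the threshold, or the 2 with the smallest p where none passed. Other members are given too, except that the values of some genes are not reported here, in the text or the figures. Transcript lengths, positions and coding bases came from GENCODE M21 (GRCm38), matched by Ensembl identifier for all 31 genes. Other filters, scalings, variance models, a replicate block and the omission of each library were tried.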

Additional observations from a re-analysis of the deposited data

Results flagged for a closer look

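In each set of 5 libraries of 1 label, the highest and lowest value of every member were compared with the rest by Dixon's gap ratio, against a critical value of 0.71. Of 62 such sets 2 exceeded it. Chance flags about 5% of sets of independent values, but the adjustment ties these values to each other, so that rate need not hold here. In libraries labelled KO, Kcna5 was 3.53 log2 CPM in replicate 4, with the nearest other library at 3.94. In libraries labelled WT, Kcnk6 was 0.79 log2 CPM in replicate 5, with the nearest other library at 1.05.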

How the results depend on the processing

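None of the 25 tested members passed in the main fit, and none passed in any fit that left out 1 library. With litter and genotype only, 1 passed and 1054 of all genes did. With genotype only, 4 passed (Kcnab1, Kcnma1, Kcnq5 and Kcnj8) and 2608 of all genes did. Both fits count degrees of freedom that the adjustment had used up. Over all genes, the 41 calls became 24 with quantile normalization and 1 without a trend in eBayes, where Lrtm1 no longer passed (adjusted p = 0.0517 and 0.315), and the cause was not tested. Lrtm1 also lost its call without KO replicate 3 or WT replicates 1, 5 or 6 (adjusted p from 0.0529 to 0.143). Without 1 library they ranged from 8 to 60, with 8 without WT replicate 1, 11 without KO replicate 3, 17 without WT replicate 6 and 20 without WT replicate 5. WT replicate 1 and KO replicate 3 are each the only library of their label in a litter. Replicate numbers were not taken as pairs in the main fit. Correlations of deviations were -0.846, 0.452, 0.0316 and -0.502 for numbers 1, 3, 4 and 5. They cannot show whether the numbers pair the libraries, because removal of litter ties the deviations of libraries that share a litter. Number 4 is litter 112 in the KO label and litter 110 in the WT label. With the replicate block no member passed, 128 of all genes did, and the difference of Kcnj11 was 0.006 in place of -0.01. The accessory median of 0.25 was -0.035 with no minimum and 0.54 with a minimum of 1, where 3 and 1 genes were left. The log2 ratio of summed CPM was -0.083 for calcium-activated genes without Kcnma1 and -0.053 for accessory genes without Kcnab1. Without 1 library, 6 of 220 differences of the members reported turned sign, in Kcna5 (-0.016 to 0.255), Kcnc4 (-0.006 to 0.09), Kcnj11 (-0.044 to 0.015) and Kcnn1 (-0.006 to 0.044). With the median transcript length, chosen after seeing the data, the groups held other shares of CPM per kilobase: voltage-gated 39.8%, inward rectifier 56.0%, calcium-activated 3.37%, tandem-pore 0.379% and accessory 0.529%. The inward rectifier share is then too high, because the Kcnj11 median of 494 bases is shorter than its coding sequence. Unknown depth limits the genes near 0 log2 CPM most.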
